A study of Mus musculus with 36 samples.

Results

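Microglia that had been given lipopolysaccharide (LPS) for 24 h were compared with microglia given LPS for 4 h. The cells were BV-2, an immortalised line of mouse microglia of wild-type genotype. The comparison held every gene in the deposited table of the 3 LPS 24 h and the 3 LPS 4 h libraries, which are 6 of the 36 libraries of the series. That table listed 17258 genes, and 11510 of them reached 10 normalised reads in 3 libraries and were tested. LPS from Escherichia coli was used at 600 ng/mL in medium with the serum lowered to 0.1%, and the labels give a vehicle at 0.2% for all treated cells without naming the one that the LPS-only cells received. Cells given only DMSO or only ethanol (ETOH) for the same 4 h and 24 h, 3 libraries in each of these 4 groups, gave the change over time without LPS. The labels do not say whether the serum was lowered in these vehicle cultures too. No group used here carried a drug. Each experiment was repeated 3 times per the labels, which say no more of how the replicates arose, so the p-values measure only the spread between these samples, which may be technical. LPS libraries carry the numbers 1 to 3 and vehicle libraries 4 to 6.

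LPS is a wall component of Gram-negative bacteria that microglia and macrophages sense through the receptor TLR4 and its co-receptor CD14. The MyD88 arm of TLR4 signalling sends NF-kB and MAP kinase pathways to the promoters of cytokine and chemokine genes within hours, and the TRIF arm induces interferon beta, which acts back on the cell and switches on interferon-stimulated genes. Many of these early transcripts are short-lived and are held down by inhibitors that the same pathways induce, whereas acute-phase proteins, antimicrobial proteins and nitric oxide synthase accumulate later.

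The 18 LPS and vehicle libraries held 14110424 to 26676607 reads in genes, and those of LPS 15081796 to 21882585. As a check of the labelled cell type, Csf1r, the receptor for colony stimulating factor 1 on microglia and macrophages, was at 9432 to 13346 normalised reads in the LPS libraries, but 7 of 22 markers could not be tested: Sall1, Mertk, Gpr34, Siglech, C1qa, C1qb and C1qc were too low or not listed. Of 20 markers of neurons, astrocytes, oligodendrocytes, fibroblasts and lymphocytes, 16 were too low or not listed, among them Rbfox3, Gfap, Mog, Col1a1 and Cd3e. The summed level of these 20 genes was 1337 to 1363 in the LPS 4 h libraries, 1520 to 1940 in the LPS 24 h libraries and 1466 to 1866 in the vehicles, and its part in the results was not tested. Map2 (log2 change 0.82) and Pecam1 (0.53) were the members called higher at 24 h of LPS. Mitochondrial genes took 1.44% of the reads in LPS 24 h replicate 1 and 2.04% to 2.32% in the other LPS libraries, and 4 of 13 mitochondrial genes tested (mt-Nd1, mt-Cytb, mt-Nd2, mt-Nd4) were called lower at 24 h. In a principal component analysis of the 18 libraries the first component, with 47.1% of the variance, ordered them by time, and LPS 4 h replicate 2, at -18.5, lay nearer to the 24 h libraries than replicates 1 and 3, at -28.6 and -26.8. The second-numbered 4 h library of DMSO and that of ETOH likewise lay nearest to the 24 h libraries among the 4 h libraries of their vehicle. The shift was therefore not confined to LPS, and its cause was not tested. LPS 4 h replicate 2 was also the highest 4 h library for many inflammatory genes below. List counts that moved by more than 1.5 times, and by 2 genes or more, when 1 LPS library was left out are given beside the count, and for single genes the libraries without which a call was lost.

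To show the control regions behind the genes described below, the 250 bases before the transcription start were taken from RefSeq (build GRCm38.p6) for 6 genes that fell under LPS and for Lcn2, which rose. They are written 5′ to 3′ on the strand of the gene, and capitals mark matches on either strand to the motif named.
For the chemokines Ccl20 and Cxcl2, capitals mark the kB-like motif GGNNTTTCC, the kind of sequence that NF-kB binds.
Ccl20, chr1:83116516-83116765, plus strand: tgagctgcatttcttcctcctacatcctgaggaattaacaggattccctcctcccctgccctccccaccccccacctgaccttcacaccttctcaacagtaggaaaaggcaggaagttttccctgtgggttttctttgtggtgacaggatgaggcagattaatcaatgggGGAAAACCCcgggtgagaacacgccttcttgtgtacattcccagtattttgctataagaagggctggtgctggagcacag
Cxcl2, chr5:90903649-90903898, plus strand: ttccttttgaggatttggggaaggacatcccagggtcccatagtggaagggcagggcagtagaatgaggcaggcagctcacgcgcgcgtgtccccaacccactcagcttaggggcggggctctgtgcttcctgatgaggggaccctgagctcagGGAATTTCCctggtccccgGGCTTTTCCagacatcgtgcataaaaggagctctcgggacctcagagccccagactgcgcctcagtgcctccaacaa
For the interferon-induced Ifit1 and Irgm2, capitals mark the ISRE-like motif GAAANNGAA. In Ifit1, 2 of 3 matches overlap.
Ifit1, chr19:34640639-34640888, plus strand: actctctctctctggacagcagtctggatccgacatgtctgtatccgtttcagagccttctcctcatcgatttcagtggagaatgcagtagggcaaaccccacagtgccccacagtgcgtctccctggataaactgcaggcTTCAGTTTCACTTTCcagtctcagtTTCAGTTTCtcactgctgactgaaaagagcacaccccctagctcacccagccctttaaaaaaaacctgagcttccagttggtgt
Irgm2, chr11:58214727-58214976, plus strand: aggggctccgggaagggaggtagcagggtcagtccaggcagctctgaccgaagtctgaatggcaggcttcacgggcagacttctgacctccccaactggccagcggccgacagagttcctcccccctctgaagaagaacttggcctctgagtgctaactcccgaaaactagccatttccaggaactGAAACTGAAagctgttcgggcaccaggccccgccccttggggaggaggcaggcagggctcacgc
For the matrix metalloprotease Mmp10, capitals mark the AP-1 motif TGANTCA, and for Cdc20, an activator of the mitotic ubiquitin ligase, they mark CCAAT and the CHR-like motif TTTGAA.
Mmp10, chr9:7502092-7502341, plus strand: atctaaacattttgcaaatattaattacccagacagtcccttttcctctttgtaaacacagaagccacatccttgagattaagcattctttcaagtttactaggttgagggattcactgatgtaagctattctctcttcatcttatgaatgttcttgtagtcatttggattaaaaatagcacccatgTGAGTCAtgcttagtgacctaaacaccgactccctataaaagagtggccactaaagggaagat
Cdc20, chr4:118437344-118437593, minus strand: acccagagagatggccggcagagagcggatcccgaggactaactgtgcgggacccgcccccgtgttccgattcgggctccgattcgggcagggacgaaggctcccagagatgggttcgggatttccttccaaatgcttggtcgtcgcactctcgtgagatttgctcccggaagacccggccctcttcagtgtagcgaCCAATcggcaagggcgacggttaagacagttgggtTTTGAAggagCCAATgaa
For Lcn2 none of these 5 motifs, nor the sterol motif TCACNCCAC, was found in these bases.
Lcn2, chr2:32387740-32387989, minus strand: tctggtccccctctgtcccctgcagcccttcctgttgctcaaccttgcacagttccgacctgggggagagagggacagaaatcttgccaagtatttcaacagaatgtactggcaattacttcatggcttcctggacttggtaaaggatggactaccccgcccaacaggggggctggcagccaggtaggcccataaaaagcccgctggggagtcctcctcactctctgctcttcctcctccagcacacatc

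Promoter windows of 300 bases, from 250 before to 50 after the start, were found for 9100 of the 11508 tested gene symbols. The kB-like motif stood in 7.40% of these windows. It stood in 15.2% (22 of 145) of those of genes that fell by more than 1 on the log2 scale. Among chemokines it stood in 5 of 9 tested and in 4 of 5 that fell. AP-1 stood in 6.31% of all windows and 14.5% of the same 145. The ISRE-like motif stood in 8.77% of all windows. It stood in 13 of 21 tested interferon-stimulated genes and in 5 of 9 that fell. Among the guanylate-binding proteins and class I presentation genes it stood in 9 of 19 tested and in 6 of 7 that fell. CCAAT, found in 43.3% of all windows, was present in 17 of 19 genes of mitosis and in 14 of 14 of sterol synthesis, and the CHR-like motif, in 14.5% of all, in 14 of 19 genes of mitosis. The sterol motif was rare, in 1.34% of all windows and in 1 of 14 of the sterol genes. These matches are descriptions of letters in a window.

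Between 4 h and 24 h of LPS, 2840 genes rose (24.7% of 11510) and 2793 fell (24.3%) at an adjusted p below 0.05 by limma on log2(normalised reads + 1), the test behind each call below unless another is named. The rises were larger than the falls: the median rise was 0.67 and the median fall 0.49 on the log2 scale, and a change beyond 1 was reached by 725 rising genes (6.3%) and 197 falling genes (1.71%). Beyond 2 there were 82 rises and 22 falls. The balance of calls depended on the scaling. With libraries scaled to their totals, 3098 of 11551 genes rose and 2365 fell, so that 56.7% of the calls were rises, against 50.4% above. The values of the 3 libraries at 24 h lay wholly above or below those at 4 h for 58.5% of the genes tested. Genes called higher spanned more of the genome than genes called lower, with a median gene span of 34.8 kb against 18.9 kb and 25.0 kb for all genes tested. The 7 chemokines that fell had a median span of 2.13 kb.

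The vehicle cultures also changed between the same times. In DMSO 25.7% of 11482 genes rose and 25.8% fell, and in ETOH 29.1% of 11775 rose and 29.5% fell. LPS and vehicle comparisons share no library. Of the genes that rose under LPS, 1796 also rose in DMSO, which is 63.2% of the LPS rises and 60.8% of the DMSO rises, and 2028 also rose in ETOH (71.4% and 59.1%). Of those that fell, 1916 also fell in DMSO (68.6% of the LPS falls and 64.6% of the DMSO falls) and 2192 in ETOH (78.5% and 63.2%). Among changes beyond 1, 31 of the 197 larger falls were shared with DMSO (15.7% of the LPS list, 31.3% of the DMSO list) and 288 of the 725 larger rises (39.7% and 47.1%). With ETOH, 75 of the larger falls (38.1% of the LPS list, 28.3% of the ETOH list) and 379 of the larger rises (52.3% and 43.5%) were shared. Across the 11295 genes in both tables the log2 changes of LPS and DMSO had a Pearson r of 0.70, and with ETOH 0.73 over 11404 genes, a description across genes, which are not independent. Among 11284 genes in all 3 tables, 604 of 2796 that rose and 438 of 2760 that fell under LPS were called in neither vehicle, and 24 and 39 moved the opposite way in both.

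The difference between the time changes was therefore tested directly, as the log2 time change under LPS minus the mean log2 time change of DMSO and ETOH in 1 fit of the 18 libraries, with reads rescaled jointly. It was positive for 1126 of 12085 genes (9.32%) and negative for 913 (7.55%), so that 55.2% of the calls were positive, and 66.2% when libraries were scaled to their totals. Beyond 1 on the log2 scale the negative side was larger, with 199 genes against 137, and beyond 2 with 45 against 14. The plot of each gene's change under LPS against the mean vehicle change shows both sides.

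**Figure D1:**
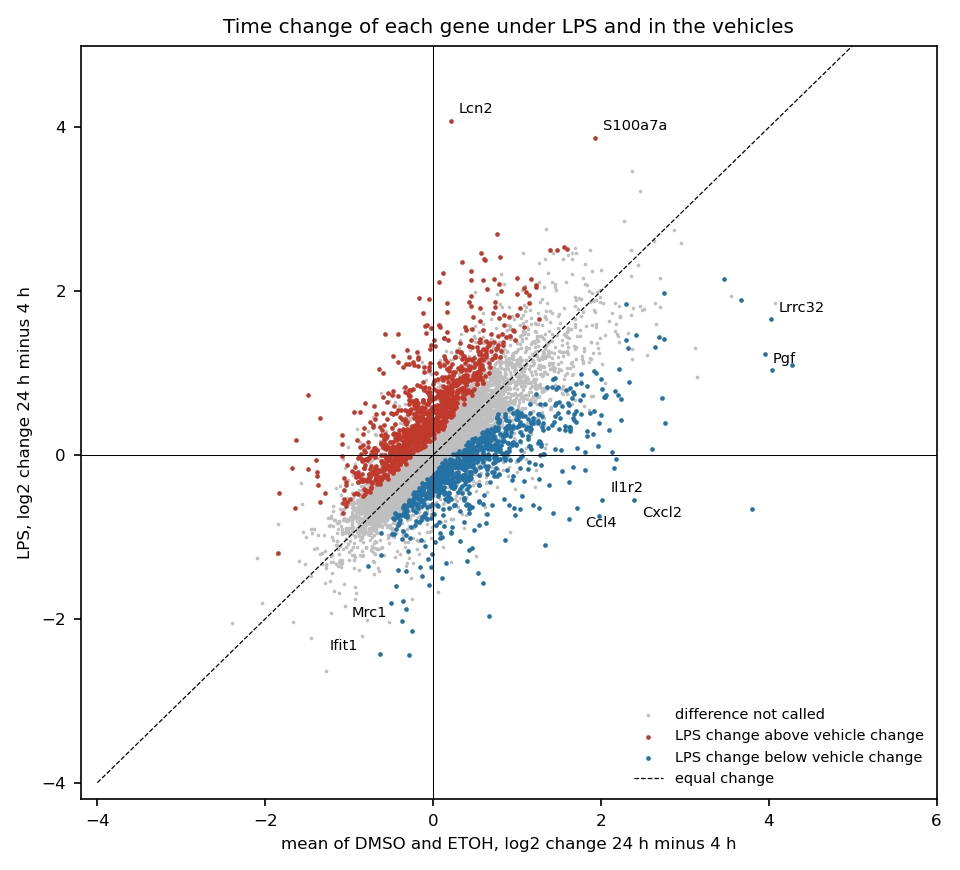
Log2 change from 4 h to 24 h under LPS (vertical) against the mean of the changes in DMSO and ETOH (horizontal), with 1 point for each gene in all 3 tables. Red and blue points passed the test of the difference, grey did not, and the dashed line marks equal change. Lcn2, S100a7a and the named chemokines lie off this line, while most points lie along it.

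The lists that follow were drawn up by function, and their counts stand against 24.7% of all genes that rose under LPS and 24.3% that fell. Of 500 tested members of 25 gene lists, 280 (56%) changed under LPS, 148 up and 132 down (29.6% and 26.4%, against 24.7% and 24.3% of all genes), and 205 of the 280 lost their call in none of the fits without 1 library that tested them. In the difference from the vehicles, 54 of the 500 were called positive (10.8%, against 9.32% of all genes) and 81 negative (16.2%, against 7.55%). The plot of list medians sets LPS beside each vehicle.

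**Figure D2:**
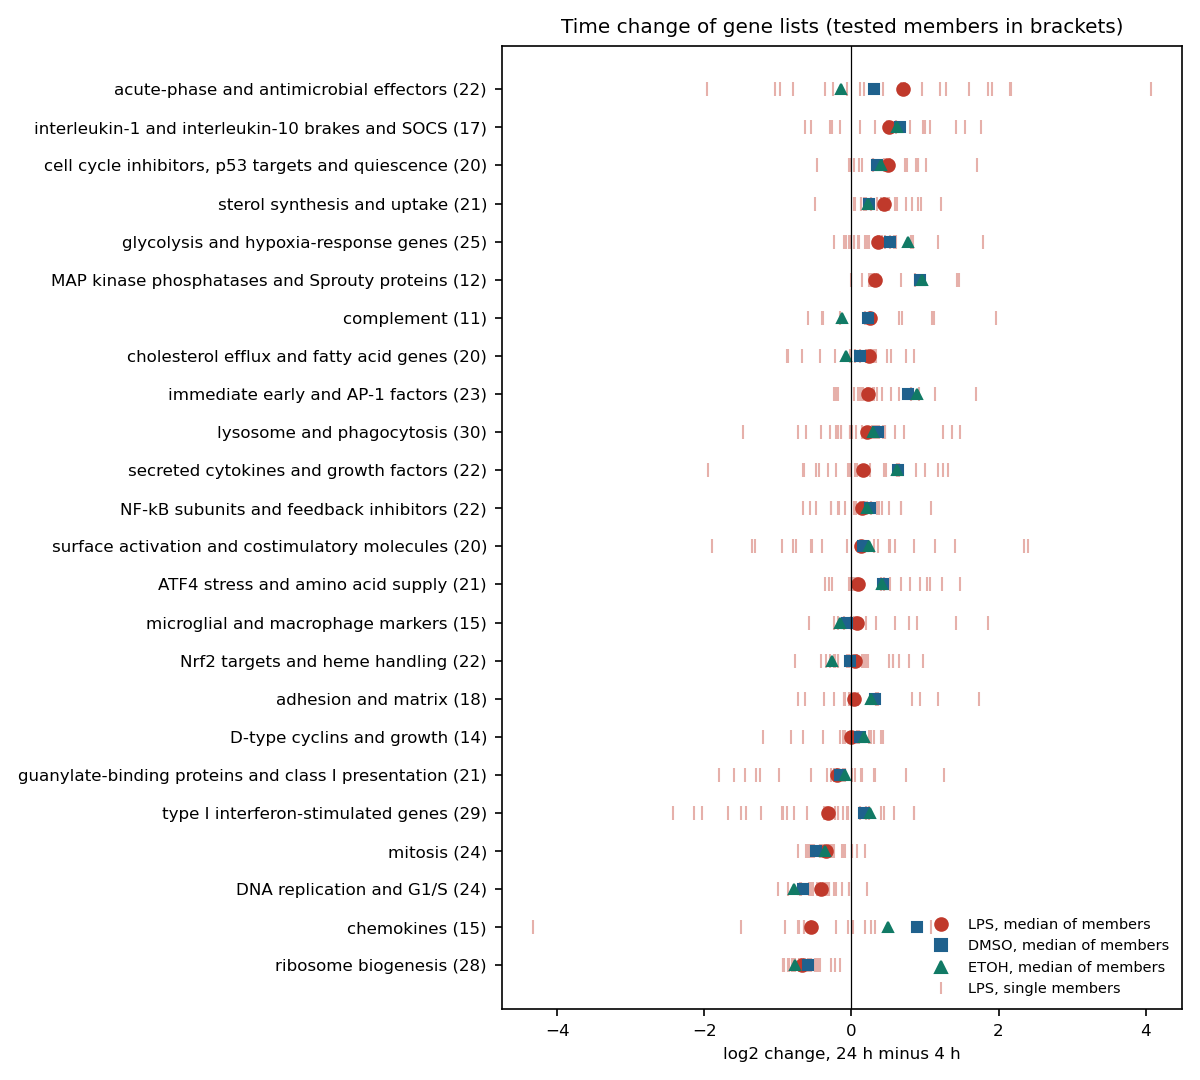
Log2 change from 4 h to 24 h for each gene list with at least 5 tested members (number in brackets). Ticks are single members under LPS, and the circle, square and triangle are the list's median under LPS, in DMSO and in ETOH. The numbers in brackets are those tested under LPS, and each vehicle median covers the members tested in that vehicle. Ribosome biogenesis, chemokines, replication and mitosis have the lowest LPS medians and acute-phase effectors the highest at 0.69. Chemokines lie at -0.55 under LPS, 0.89 in DMSO and 0.50 in ETOH, over 15, 12 and 14 tested members, so not over the same genes.

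Chemokines, the secreted attractants of leukocytes, included the largest fall of any gene tested, that of Ccl20. Of 15 tested, 7 fell (Ccl2, Ccl3, Ccl4, Ccl20, Cxcl2, Cxcl3, Cxcl10), 1 rose (Ccl5), and the median was -0.55, against about 0 for all genes. The falls numbered 4 or 5 in 5 of the 6 fits without 1 library (4 without LPS 4 h replicate 1 or LPS 24 h replicate 1), and 5 with DESeq2. Without an LPS 4 h library Ccl20 was under the minimum and was not tested, which lowers those counts. With DESeq2 or without LPS 24 h replicate 2 or 3 or LPS 4 h replicate 1 or 3 no chemokine was called higher. Ccl20, the ligand of CCR6 that draws lymphocytes and dendritic cells (GRCm39 chromosome 1, 83094487 to 83096888), was at 114, 95.4 and 87.4 normalised reads at 4 h and 1.09, 6.25 and 6.87 at 24 h. The 2 groups were far apart (log2 change -4.34, SE 0.47, adjusted p = 0.00014). The neutrophil attractant Cxcl2 was among the most abundant chemokines at both times, at 8533, 9525 and 7129 normalised reads at 4 h and 4453, 7487 and 5533 at 24 h, with 1 library of 24 h inside the range of 4 h (log2 change -0.55, SE 0.17, adjusted p = 0.025, lost without LPS 24 h replicate 1 or 3 or LPS 4 h replicate 1 or 2 at an adjusted p of up to 0.084). Ccl4, an attractant of monocytes and T cells, was at 2253, 2525 and 1896 normalised reads at 4 h and 1482, 1246 and 1524 at 24 h, without overlap (log2 change -0.65, SE 0.12, adjusted p = 0.00173). The monocyte attractant Ccl2 was at 6052, 3319 and 4702 normalised reads at 4 h and 3146, 2193 and 3594 at 24 h, so the groups overlapped (log2 change -0.64, SE 0.22, adjusted p = 0.0343, lost without LPS 24 h replicate 1 or 2 or LPS 4 h replicate 1 or 3 at an adjusted p of up to 0.143). Cxcl3, another neutrophil attractant, fell too (log2 change -0.73, adjusted p = 0.04, lost without LPS 24 h replicate 1, 2 or 3 at an adjusted p of up to 0.126). Ccl3, a macrophage inflammatory protein, fell by 0.71 on the log2 scale. The interferon-inducible Cxcl10 was at 511, 1135 and 715 normalised reads at 4 h and 196, 404 and 229 at 24 h and fell in the test (adjusted p = 0.00286), with each 24 h library below each 4 h library. Ccl5, the only riser of this list, which acts on T cells and monocytes, was at 197, 451 and 151 normalised reads at 4 h and 405, 678 and 464 at 24 h (log2 change 1.08, SE 0.34, adjusted p = 0.0257, lost without LPS 24 h replicate 2 or 3 or LPS 4 h replicate 1 or 3 at an adjusted p of up to 0.115), with replicate 2 of 4 h inside the range of 24 h. Ccl7 was at 1178, 391.8 and 803 normalised reads at 4 h and 550.2, 229 and 451 at 24 h and missed the threshold (log2 change -0.90, adjusted p = 0.0811), but passed it with the replicate number as a block (adjusted p = 0.000112).

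Of the 7 chemokines that fell under LPS, 4 rose with time in both vehicles. Cxcl2 rose by 2.26 in DMSO and 2.52 in ETOH on the log2 scale, Ccl4 by 1.77 and 1.67, Ccl3 by 1.66 and 1.20, and Cxcl3 by 0.96 and 0.98. On the joint scale Cxcl2 was at 106 to 304 at 4 h and 672 to 1028 at 24 h in the vehicles and at 7266 to 9785 at 4 h and 4573 to 7758 at 24 h under LPS, so that LPS stayed above every vehicle library at both times. For Ccl4 the vehicles were at 235 to 362 at 4 h and 772 to 1051 at 24 h and LPS at 1932 to 2594 at 4 h and 1291 to 1573 at 24 h. The difference of the time changes was called negative for 5 chemokines, at -2.93, SE 0.39, adjusted p = 7.18e-05 for Cxcl2, -2.36, SE 0.18, adjusted p = 6.57e-07 for Ccl4, -2.13, adjusted p = 1.54e-06 for Ccl3, -1.70, adjusted p = 0.00455 for Cxcl3 and -3.85, adjusted p = 0.00154 for Ccl20. For Ccl20 the vehicles held only 1, 0, 3 and 1 reads over the 3 libraries of DMSO 4 h, DMSO 24 h, ETOH 4 h and ETOH 24 h, so its value depends on the added 1 and is no bound. Cxcl14, a chemokine of epithelia and other resting tissues, was called positive (0.69, adjusted p = 0.00238), having fallen in the vehicles by 0.93 and 0.85 while it was at 1635, 1370.4 and 1584 normalised reads at 4 h and 1438, 1232 and 1304 at 24 h under LPS.

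**Figure D3:**
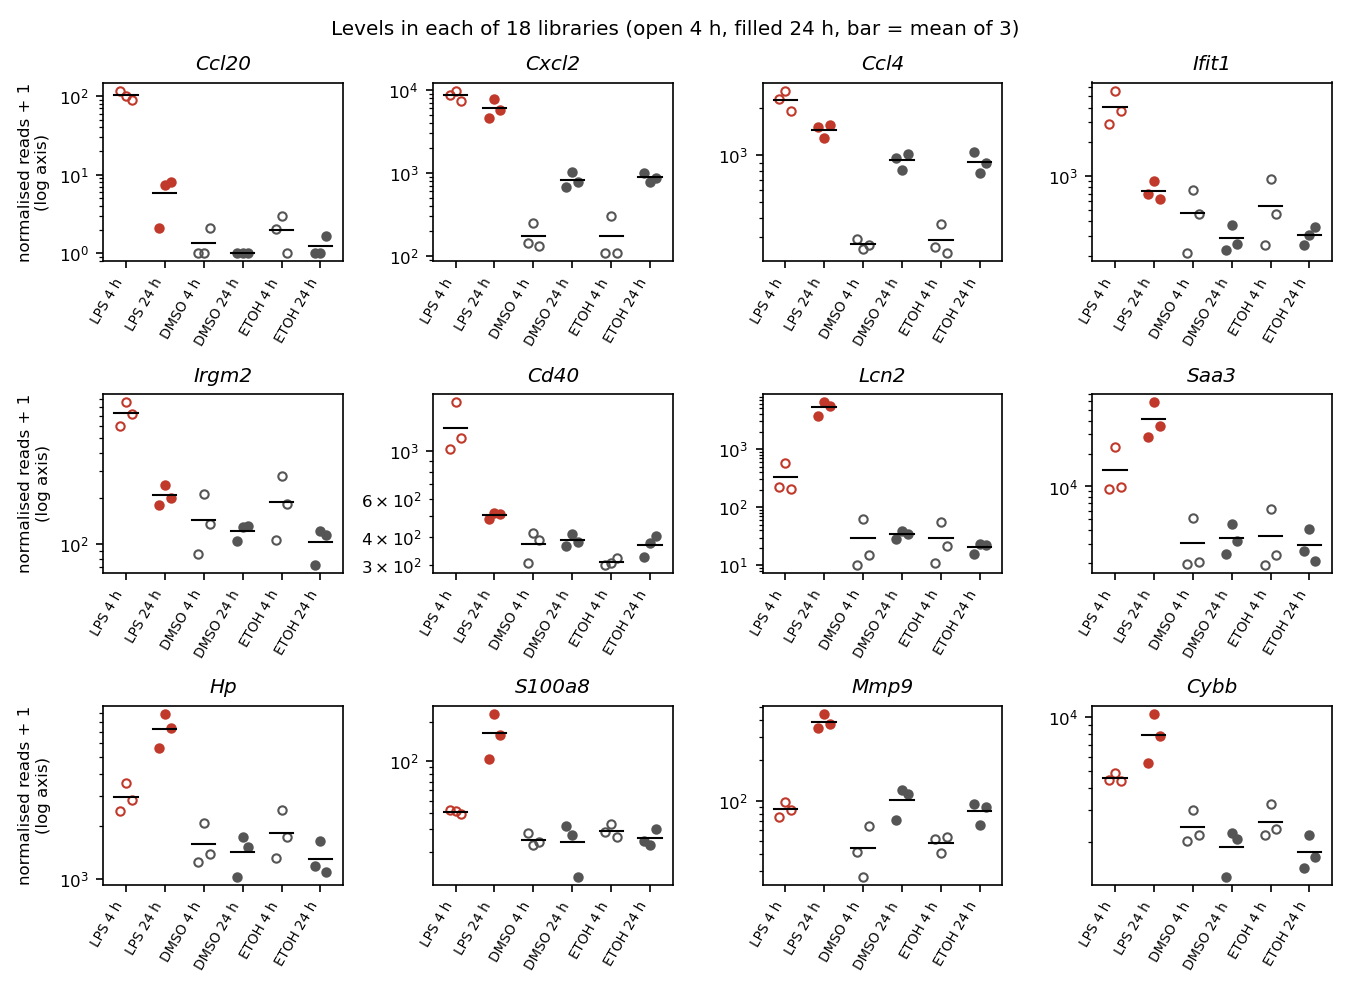
Reads on the joint scale plus 1 (log axis) of 12 genes in each of the 18 libraries, LPS in red and vehicles in grey, open circles at 4 h and filled at 24 h, with a bar at the mean of 3 libraries. Ccl20, Ifit1, Irgm2 and Cd40 drop from LPS 4 h to LPS 24 h, Lcn2, Saa3, Hp, S100a8, Mmp9 and Cybb climb, and Cxcl2 and Ccl4 fall under LPS while they rise in both vehicles.

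Cytokines split by gene. Of 22 tested cytokine and growth factor genes, 7 rose (Il6, Il18, Il27, Csf3, Vegfa, Pdgfb, Inhba) and 4 fell (Tnf, Lif, Csf1, Tnfsf10), against 24.7% and 24.3% of all genes. Rises numbered 4 without LPS 24 h replicate 2 or 3, and without LPS 4 h replicate 1 or 3. Tnf, the early macrophage cytokine, was at 7479, 6493 and 6828 normalised reads at 4 h and 5044, 4804 and 5042 at 24 h, without overlap (log2 change -0.48, SE 0.08, adjusted p = 0.00129). Csf1, the survival factor of microglia, was at 1150.5, 1437 and 1085 normalised reads at 4 h and 799.8, 817 and 716 at 24 h, lower in each 24 h library (log2 change -0.65, SE 0.11, adjusted p = 0.00144). Csf3, which drives granulocyte production, went the other way at 214, 225 and 144 normalised reads at 4 h and 362, 602 and 428 at 24 h (log2 change 1.25, SE 0.21, adjusted p = 0.00115). Il6, a late inflammatory cytokine, was low at 25, 58.1 and 21.9 normalised reads at 4 h and 69.5, 71.9 and 53.5 at 24 h (log2 change 0.999, SE 0.34, adjusted p = 0.0327, lost without LPS 24 h replicate 1, 2 or 3 or LPS 4 h replicate 1 or 3 at an adjusted p of up to 0.115), with replicate 2 of 4 h inside the 24 h range.
Neither interleukin 1 gene passed the test. Il1b, the inflammasome substrate, was at 1194, 3799 and 1399 normalised reads at 4 h and 2065, 3194 and 2427 at 24 h, and the groups overlapped with replicate 2 of 4 h the highest of the 6 (log2 change 0.44, adjusted p = 0.327). Il1a was at 765, 1405 and 729 normalised reads at 4 h and 632, 736 and 669.8 at 24 h (log2 change -0.44, adjusted p = 0.108, and 0.0241 with the replicate block). Against the vehicles, Csf1 had the most negative difference of these 22 (-1.60, SE 0.20, adjusted p = 4.97e-05), having risen in DMSO by 1.06 and in ETOH by 0.86. Osm, a cytokine of the interleukin 6 family, was at 404, 338 and 326 normalised reads at 4 h and 341, 373 and 403 at 24 h under LPS (log2 change 0.07, adjusted p = 0.658) and rose in the vehicles by 1.29 and 1.62, a difference of -1.38, adjusted p = 6.99e-06. Tnf differed by -0.61, adjusted p = 0.00296. None of the 22 had a positive call in the difference, and 6 had a negative one. Il10, an anti-inflammatory cytokine, was too low for the LPS test and entered only the joint fit, whose minimum counts all 18 libraries. Its value there (-2.82, adjusted p = 0.0159 by limma) rests on low LPS reads and the added 1. It is no bound and adds nothing to the calls above.

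Interferon-stimulated genes held more falling members by number than any other immune list, but chemokines fell in a similar share (7 of 15). Of 29 interferon-stimulated genes tested, 13 fell, 2 rose and the median was -0.32. With the replicate block 15 fell and 5 rose, and without LPS 4 h replicate 2, 11 fell and 7 rose, and in the fit of 18 libraries 8 fell. Ifit1, whose protein binds foreign RNA ends, was at 2809.7, 5474 and 3690.4 normalised reads at 4 h and 684, 870.1 and 613 at 24 h (log2 change -2.43, SE 0.21, adjusted p = 6.3e-05). Every 24 h library was below every 4 h library. The near neighbours Ifit1bl1 (-2.63) and Ifit3 (-1.23) also fell, although reads can be split among these related genes. Mx1, a dynamin-like antiviral GTPase, was at 475, 898 and 602 normalised reads at 4 h and 152, 184 and 131 at 24 h (log2 change -2.03, SE 0.21, adjusted p = 0.000135), and Rsad2, the antiviral enzyme viperin, at 2294, 3668 and 2650.4 normalised reads at 4 h and 1014, 1259 and 879.9 at 24 h (log2 change -1.44, SE 0.17, adjusted p = 0.000216). Neither overlapped. Cmpk2, a mitochondrial nucleotide kinase next to Rsad2, was at 83.2, 179 and 130.1 normalised reads at 4 h and 19.5, 39.6 and 26.7 at 24 h (log2 change -2.14, SE 0.32, adjusted p = 0.000569). Isg15, a ubiquitin-like modifier, was at 457, 1143 and 660.01 normalised reads at 4 h and 383, 413 and 351 at 24 h (log2 change -0.88, adjusted p = 0.019, lost without LPS 24 h replicate 3 at an adjusted p of up to 0.067).
The 2 that rose were Oas3, a sensor of double-stranded RNA, at 2049, 3466 and 2518 normalised reads at 4 h and 4369, 5361 and 4490.1 at 24 h (log2 change 0.85, SE 0.17, adjusted p = 0.00241), and Irf7, the amplifier of interferon production, at 1692, 4617 and 2162 normalised reads at 4 h and 3987, 5356 and 4662 at 24 h (log2 change 0.85, adjusted p = 0.0359, lost without LPS 24 h replicate 2 or 3 or LPS 4 h replicate 1 or 3 at an adjusted p of up to 0.131). Irf7 in replicate 2 of 4 h lay among the 24 h values. In the vehicles the list's medians were 0.17 in DMSO and 0.25 in ETOH. The difference was called negative for 5 members, Ifit1 (-1.78, adjusted p = 0.0216), Rsad2 (-1.96, adjusted p = 0.0026), Oasl1 (-1.15, adjusted p = 0.00235), Mx2 (-1.60, adjusted p = 0.0216) and Cmpk2 (-1.88, adjusted p = 0.0392), and positive for 0. At 24 h Ifit1 under LPS still lay above the vehicles, on the joint scale at 2856 to 5624 at 4 h and 633 to 902 at 24 h against 209 to 936 at 4 h and 223 to 371 at 24 h.

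Some interferon-inducible GTPases fell as well. Of 21 tested guanylate-binding proteins, immunity-related GTPases and class I presentation genes, 7 fell (Gbp2, Gbp3, Gbp5, Igtp, Irgm1, Irgm2, Psmb10) and 2 rose (Irf8, Nlrc5), the latter 5 without LPS 4 h replicate 2 and 4 with the replicate block. Irgm2, which acts on vacuoles that hold pathogens, was at 589.8, 833 and 699 normalised reads at 4 h and 174, 237 and 193 at 24 h (log2 change -1.81, SE 0.15, adjusted p = 5.49e-05), and Irgm1 at 2041, 2888 and 2345 normalised reads at 4 h and 744, 888 and 745 at 24 h (log2 change -1.60, SE 0.13, adjusted p = 4.64e-05). For both the groups were well apart. Gbp2 was at 299.6, 648 and 385 normalised reads at 4 h and 144, 204 and 168 at 24 h (log2 change -1.30, adjusted p = 0.00207). Irf8, a factor that shapes microglial identity, was at 795, 673 and 715 normalised reads at 4 h and 1701, 1829 and 1688 at 24 h (log2 change 1.26, SE 0.09, adjusted p = 3.02e-05), and Nlrc5, the activator of class I genes, at 1873, 2081 and 1975 normalised reads at 4 h and 3058, 3978 and 2954 at 24 h (log2 change 0.74, SE 0.11, adjusted p = 0.000698). B2m, the light chain of class I molecules, was at 13141, 18729.8 and 13918 normalised reads at 4 h and 14058, 19121 and 17247 at 24 h, with overlap (log2 change 0.15, adjusted p = 0.464). Irf8 rose as well in DMSO (0.90) and ETOH (1.29). Irgm1 (-1.15, adjusted p = 0.00708) and Irgm2 (-1.30, adjusted p = 0.025) were called negative in the difference, and Psmb9, a subunit of the immunoproteasome, positive. In the vehicles 5 of 20 members fell in DMSO and 8 of 21 in ETOH, and the medians were -0.20 under LPS, -0.15 in DMSO and -0.09 in ETOH.

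Acute-phase and antimicrobial effectors had the highest median of the lists, 0.69. Of 22 tested, 13 rose and 5 fell. Falls numbered 2 without LPS 4 h replicate 1 or 2 and 3 without LPS 4 h replicate 3 or LPS 24 h replicate 3. Arg1, one of those that fell, was under the minimum and not tested without an LPS 4 h library. Lcn2, or lipocalin 2, which withholds iron from bacteria (GRCm39 chromosome 2, 32274645 to 32278264), was at 222, 565 and 198 normalised reads at 4 h and 3630.0, 6147 and 5360.1 at 24 h. The lowest 24 h library was above the highest 4 h library by more than the spread within either group (log2 change 4.07, SE 0.34, adjusted p = 5.49e-05). In the vehicles Lcn2 stayed at 9.13 to 62.9 at 4 h and 14.9 to 38.4 at 24 h on the joint scale, with log2 changes of 0.65 and -0.23 that passed no test, and the difference was 3.87, SE 0.70, adjusted p = 0.00101. Saa3, an acute-phase protein made by macrophages, was the most abundant of these at 9288, 22397 and 9675 normalised reads at 4 h and 27697, 56925 and 34947 at 24 h (log2 change 1.59, SE 0.34, adjusted p = 0.00369). Hp, the haemoglobin scavenger haptoglobin, was at 2394, 3469.6 and 2784 normalised reads at 4 h and 5499.9, 8543 and 7153 at 24 h (log2 change 1.29, SE 0.17, adjusted p = 0.000319). S100a8, a subunit of calprotectin, was at 40.6, 39.4 and 37.5 normalised reads at 4 h and 99.8, 222 and 153 at 24 h (log2 change 1.91, SE 0.26, adjusted p = 0.000369), while its partner S100a9 was too low or not listed. None of these groups overlapped between the times.
The difference from the vehicles was called positive for 9 members (Lcn2, Hp, S100a8, Slpi, Ass1, Mmp8, Mmp9, Marco, Cybb) and negative for 6 (Arg1, Ptgs2, Mmp3, Mmp12, Mmp13, Clec4e). It was called for Hp (1.61, adjusted p = 0.00134) and S100a8 (2.09, adjusted p = 0.000814), and not for Saa3 (1.54, adjusted p = 0.0626). Nos2, the inducible nitric oxide synthase, was at 1056, 4412 and 1437 normalised reads at 4 h and 5384, 9199 and 6354 at 24 h (log2 change 1.85, SE 0.43, adjusted p = 0.00571). It also rose in DMSO (3.32) and in ETOH (4.82), where it was at 11.6 to 263 at 4 h and 485 to 1210.2 at 24 h on the joint scale, and its difference was -2.21, adjusted p = 0.138. Cybb, the catalytic subunit of the phagocyte NADPH oxidase, was at 4382, 4699 and 4302 normalised reads at 4 h and 5358, 10020.5 and 7554 at 24 h (log2 change 0.73, SE 0.18, adjusted p = 0.00825, difference 1.23, adjusted p = 0.00599). Slpi, a protease inhibitor, was at 4824, 5992 and 4042 normalised reads at 4 h and 6181, 10534 and 7313 at 24 h (log2 change 0.68, adjusted p = 0.0155, lost without LPS 24 h replicate 2 or LPS 4 h replicate 3 at an adjusted p of up to 0.0624).
Metalloproteases went both ways. Mmp9, a gelatinase, was at 73.9, 94.3 and 82.2 normalised reads at 4 h and 339, 429 and 360.5 at 24 h (log2 change 2.16, SE 0.14, adjusted p = 2.72e-05), and the neutrophil collagenase Mmp8 at 11.4, 6.22 and 8.33 normalised reads at 4 h and 33.6, 50.02 and 42.8 at 24 h (log2 change 2.18, SE 0.31, adjusted p = 0.000481). Mmp3, a stromelysin, was at 45.8, 44.6 and 34.4 normalised reads at 4 h and 28.2, 25 and 12.2 at 24 h (log2 change -0.97, adjusted p = 0.0307, lost without LPS 24 h replicate 3 or LPS 4 h replicate 1 or 2 at an adjusted p of up to 0.0966), and Mmp10, its neighbour in the gene cluster, which is outside the lists, at 42.6, 75.7 and 46.8 normalised reads at 4 h and 4.34, 8.34 and 7.64 at 24 h (log2 change -2.85, SE 0.34, adjusted p = 0.000209). Mmp10 held 1, 10, 3 and 11 reads in the vehicles over the 3 libraries of DMSO 4 h, DMSO 24 h, ETOH 4 h and ETOH 24 h, so its difference of -4.29 depends on the added 1. Arg1, the arginase that competes with Nos2 for arginine, was at 31.2, 25.9 and 28.1 normalised reads at 4 h and 5.43, 9.38 and 5.35 at 24 h (log2 change -1.97, SE 0.33, adjusted p = 0.00106). Clec4e, the receptor Mincle, was at 12453, 14029 and 11603 normalised reads at 4 h and 4657, 8108 and 6254 at 24 h (log2 change -1.03, SE 0.17, adjusted p = 0.00107). Ptgs2, or cyclooxygenase 2, was abundant at both times, at 19285, 25004 and 17831 normalised reads at 4 h and 17220.1, 31668 and 22316 at 24 h (log2 change 0.17, adjusted p = 0.531), and rose in DMSO (1.29) and ETOH (1.23).

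**Figure D4:**
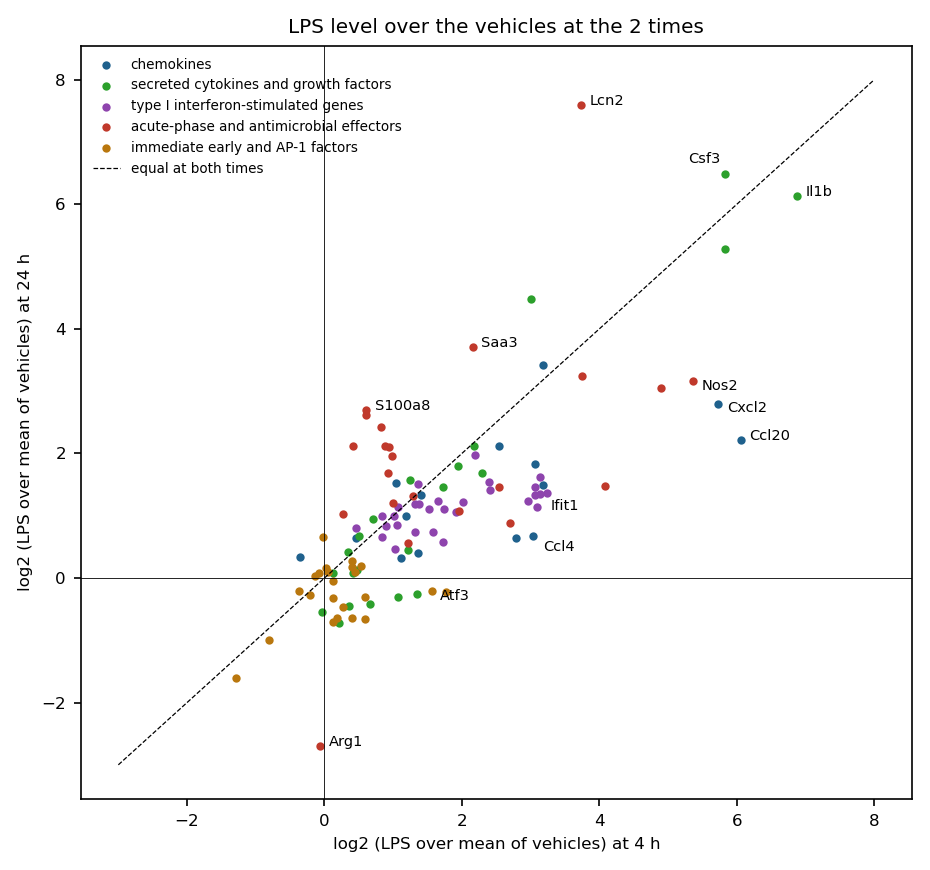
Log2 of the LPS level over the mean of the vehicles at 4 h (horizontal) and at 24 h (vertical) for the tested members of 5 lists, with 1 point for each gene and a dashed line of equal values. Lcn2 and Saa3 lie above the line and Ccl20, Cxcl2, Ccl4 and Ifit1 below it. The median of chemokines was 2.54 at 4 h and 1.34 at 24 h, and that of acute-phase effectors 0.99 and 1.95.

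Surface molecules of activation were divided evenly, with 8 of 20 up and 8 down. In the difference 6 were negative and 1 positive. The falling ones were Cd40, Cd69, Cd83, Icam1, Cd44, Tlr2, Cd14 and Fas. Cd40, the partner of CD40 ligand on T cells, was at 996, 1619 and 1124 normalised reads at 4 h and 471, 500.2 and 494 at 24 h (log2 change -1.32, SE 0.16, adjusted p = 0.000199). Tlr2, the receptor of bacterial lipoproteins, was at 4129.7, 4122 and 4307 normalised reads at 4 h and 1431, 1899.7 and 1600.1 at 24 h (log2 change -1.36, SE 0.10, adjusted p = 3.37e-05). Both were lower in each 24 h library. Tlr2 also fell in DMSO (-0.59) and ETOH (-0.97), Cd40 did not pass there (0.06 and 0.24), and the differences were -0.57, adjusted p = 0.0238 and -1.46, adjusted p = 3.81e-05. The adhesion molecule Icam1 was at 4500.1, 5771 and 4762 normalised reads at 4 h and 2895, 2828 and 2854 at 24 h (log2 change -0.80, adjusted p = 0.000236), and Cd14, the LPS co-receptor, at 22851, 27816 and 23106 normalised reads at 4 h and 15185, 17759 and 17156 at 24 h (log2 change -0.56, adjusted p = 0.00318). Cd83, a marker of mature dendritic cells, was low at 29.1, 37.3 and 46.8 normalised reads at 4 h and 19.5, 7.29 and 5.35 at 24 h (log2 change -1.89, adjusted p = 0.00528).
Those that rose included Cd86, Cd38, Tlr4, Icosl, Slamf7, Fpr1 and Cxcr2. Cd38, the NAD glycohydrolase, was at 343, 317 and 274 normalised reads at 4 h and 677, 1000.4 and 826 at 24 h (log2 change 1.41, SE 0.15, adjusted p = 0.000131), and was the only member with a positive difference (1.24, adjusted p = 0.000258). Cd86, the ligand of CD28, was at 381, 613 and 422 normalised reads at 4 h and 748, 958 and 819 at 24 h (log2 change 0.86, adjusted p = 0.00241). Cxcr2, a receptor of Cxcl2, was at 54.1, 279.9 and 88.5 normalised reads at 4 h and 564, 651 and 549 at 24 h (log2 change 2.40, SE 0.46, adjusted p = 0.00206). The wide 4 h spread came from replicate 2. Cxcr2 rose in DMSO and ETOH too (1.59 and 1.73).

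The immediate early and MAP kinase feedback genes had lower median rises under LPS than in the vehicles. Of 23 tested immediate early and AP-1 factors 6 rose (Fosl2, Jun, Egr3, Klf2, Klf6, Klf10) and 0 fell, or 12 rose without LPS 4 h replicate 2. The median was 0.23, against 0.77 in DMSO and 0.89 in ETOH, where 24 members were tested. Jun, a subunit of AP-1, was at 1384, 1451 and 1376 normalised reads at 4 h and 1946, 2036 and 2113 at 24 h (log2 change 0.53, SE 0.08, adjusted p = 0.000463), and rose by 0.999 and 0.99 in the vehicles. Atf3, a stress-induced repressor, was at 2398, 3557 and 2561 normalised reads at 4 h and 2616, 3137 and 2879 at 24 h (log2 change 0.04, adjusted p = 0.841), and rose by 1.52 in DMSO and 2.11 in ETOH. On the joint scale Atf3 in the vehicles was at 709 to 1512 at 4 h and 2968 to 3945 at 24 h, and under LPS it was at 2438 to 3654 at 4 h and 2687 to 3250.0 at 24 h, so the 24 h levels of LPS and vehicles met. The difference was -1.77, SE 0.21, adjusted p = 3.81e-05. Ier3, an early survival gene, showed the same order (-1.99, adjusted p = 0.000142). The difference was negative for 7 members, and Fos was the only one with a positive difference (0.67, adjusted p = 0.0133), at 486, 570.1 and 565 normalised reads at 4 h and 536, 675 and 596 at 24 h under LPS and with falls in DMSO (-0.44) and ETOH (-0.59).
Of 12 tested phosphatases of MAP kinases and Sprouty proteins, 6 rose and 0 fell under LPS, or 10 without LPS 4 h replicate 2 and 10 with the replicate block, while 12 rose in DMSO and 11 in ETOH. Dusp4 was at 5008, 5294 and 5010.4 normalised reads at 4 h and 6709, 6559 and 6403 at 24 h (log2 change 0.36, SE 0.08, adjusted p = 0.00335), without overlap, and Dusp8 at 27, 24.9 and 13.5 normalised reads at 4 h and 49.9, 78.2 and 51.2 at 24 h (log2 change 1.44, adjusted p = 0.00363). Their differences were -0.70, adjusted p = 4.97e-05 and -1.24, adjusted p = 0.0166. Dusp5, a phosphatase of ERK, was at 433, 635 and 510.1 normalised reads at 4 h and 636, 696 and 645 at 24 h (log2 change 0.34, adjusted p = 0.0557, and 0.0198 with the block), with a difference of -1.29, adjusted p = 0.000194.

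Among 22 tested subunits and inhibitors of NF-kB, 5 rose (Bcl3, Tnfaip2, Tnip2, Zfp36, Cyld) and 4 fell (Rela, Nfkbib, Nfkbid, Tnip3). Neither share was above that of all genes (24.7% up and 24.3% down). Rises numbered 10 without LPS 4 h replicate 2, 8 with the replicate block and 3 without LPS 24 h replicate 2 or 3 or LPS 4 h replicate 1 or 3, and falls 2 without LPS 24 h replicate 1 or 3 or LPS 4 h replicate 2 or 3. Bcl3, a nuclear IkB protein that restrains NF-kB, was at 387, 884 and 457 normalised reads at 4 h and 946, 1465 and 1070.0 at 24 h (log2 change 1.08, SE 0.27, adjusted p = 0.0084). The groups did not overlap. Nfkbib, a cytoplasmic inhibitor, was at 1512, 1867 and 1572 normalised reads at 4 h and 1045, 999 and 1066 at 24 h (log2 change -0.66, SE 0.09, adjusted p = 0.000481). Nfkbia, the classical early target, was at 3376, 5651 and 4135 normalised reads at 4 h and 3694, 6254 and 4895 at 24 h, with overlap (log2 change 0.17, adjusted p = 0.517). Nfkbiz, a coactivator of late NF-kB genes, was at 1539.5, 2181 and 1657 normalised reads at 4 h and 1959.9, 2730.2 and 2150.0 at 24 h (log2 change 0.35, adjusted p = 0.078, and 0.00352 with the block). Tnfaip3, the deubiquitinase A20, was at 691, 953 and 720.4 normalised reads at 4 h and 659.8, 881 and 677 at 24 h (log2 change -0.09, adjusted p = 0.641) and rose in DMSO (0.86) and ETOH (1.43), a difference of -1.23, adjusted p = 0.00351.
Receptor and cytokine brakes rose in 10 of 17 cases under LPS, 13 of 17 in DMSO and 14 of 17 in ETOH, with medians of 0.51, 0.65 and 0.63. The difference was called positive for 2 (Il4ra, Irak3) and negative for 5 (Il1rn, Il1r2, Lilrb4a, Peli1, Nfil3). Under LPS 2 fell (Socs1, Peli1), with 0 falls without LPS 24 h replicate 1 or 3 or LPS 4 h replicate 3 and 1 without LPS 4 h replicate 2. Irak3, a kinase-dead inhibitor of TLR signalling, was at 160.2, 155 and 144 normalised reads at 4 h and 323, 654 and 424 at 24 h (log2 change 1.54, SE 0.21, adjusted p = 0.000428). The lowest value at 24 h was above all of 4 h, and its difference was 1.09, adjusted p = 0.00437. Tsc22d3, the glucocorticoid-induced leucine zipper, was at 124, 146 and 133 normalised reads at 4 h and 464, 468 and 439 at 24 h (log2 change 1.76, SE 0.11, adjusted p = 2.61e-05), but rose in DMSO (1.27) and ETOH (1.43) as well. Il4ra, the interleukin 4 receptor chain, was at 429.6, 577 and 477 normalised reads at 4 h and 912, 1041 and 945 at 24 h (log2 change 0.97, adjusted p = 0.000216, difference 0.47, adjusted p = 0.0264). Il1r2, a decoy receptor of interleukin 1, was at 55.1, 101 and 57.3 normalised reads at 4 h and 42.3, 47.9 and 48.9 at 24 h under LPS (log2 change -0.55, adjusted p = 0.0887) and rose by 2.02 in DMSO and 2.01 in ETOH. Its vehicle levels on the joint scale were 46.8 to 139.8 at 4 h and 256 to 599 at 24 h, and the difference was -2.56, SE 0.41, adjusted p = 0.00039. Il1rn, the interleukin 1 receptor antagonist, was at 4499, 4775 and 3806 normalised reads at 4 h and 3614, 4176 and 3917 at 24 h (log2 change -0.16, adjusted p = 0.227, difference -0.90, adjusted p = 0.000454).

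Genes of proliferation and of ribosome production fell with time both under LPS and in the vehicles. Ribosome biogenesis had the largest share of falling members: 25 of 28 fell, 0 rose, and the median was -0.67 against -0.60 in DMSO and -0.77 in ETOH. Ncl, or nucleolin, was at 46010.5, 39572 and 41787 normalised reads at 4 h and 29236, 24249 and 27981 at 24 h (log2 change -0.65, SE 0.12, adjusted p = 0.00181), Nop58, a core protein of box C/D particles, at 5770.2, 5294 and 5628 normalised reads at 4 h and 3087, 2657 and 3113 at 24 h (log2 change -0.92, SE 0.09, adjusted p = 8.96e-05), and the pseudouridine synthase Dkc1 at 4771, 4220.1 and 4437 normalised reads at 4 h and 2462, 2047 and 2579 at 24 h (log2 change -0.93, SE 0.10, adjusted p = 0.000142). In each, all 24 h values lay below all 4 h values. Npm1 was the only one of the 28 called in the difference.
Of 24 genes of DNA replication and the G1/S step, 18 fell and 0 rose and the median was -0.41, against -0.66 and -0.78 in the vehicles. Pcna, the sliding clamp, was at 1938, 1638 and 1787 normalised reads at 4 h and 1169.9, 1026 and 1119.7 at 24 h (log2 change -0.69, SE 0.09, adjusted p = 0.000323), and Ccne2, a cyclin of S-phase entry, at 753, 717 and 746 normalised reads at 4 h and 361, 337 and 408 at 24 h (log2 change -1.01, SE 0.10, adjusted p = 0.000105). The difference was called positive for 7 genes (Mcm6, Gins1, Rrm2, Tyms, Tk1, E2f1, Chaf1a) and negative for 0. Tk1, the salvage thymidine kinase, was at 846, 1029 and 846 normalised reads at 4 h and 1111, 959 and 1072 at 24 h under LPS (log2 change 0.21, adjusted p = 0.117) and fell in DMSO (-0.46) and ETOH (-0.45), a difference of 0.67, adjusted p = 0.00263. Tyms, which makes thymidylate, fell by 0.58 under LPS, 0.92 in DMSO and 1.23 in ETOH.
Of 24 mitotic genes 15 fell and 0 rose, with medians of -0.34 under LPS, -0.49 in DMSO and -0.36 in ETOH. Cdc20 was at 3713, 4079 and 3978 normalised reads at 4 h and 2842, 1908 and 2468 at 24 h (log2 change -0.72, SE 0.13, adjusted p = 0.00157), and Mki67, the proliferation marker, at 10967, 9114 and 10280.1 normalised reads at 4 h and 8492, 8146 and 8233 at 24 h (log2 change -0.28, adjusted p = 0.0277, lost without LPS 24 h replicate 2 or 3 or LPS 4 h replicate 1 or 3 at an adjusted p of up to 0.105). In bulk RNA fewer cells in a phase and less RNA per cell cannot be told apart.
Of 20 tested inhibitors of the cell cycle, p53 targets and quiescence genes, 12 rose under LPS and 1 fell (Ccng1). In DMSO 12 of 20 rose and 2 fell, and in ETOH 13 of 20 rose and 4 fell. The medians were 0.49 under LPS, 0.34 in DMSO and 0.41 in ETOH. The difference was called positive for 6 members and negative for 2. Ccng2, a cyclin of arrested cells, was at 164, 841 and 328 normalised reads at 4 h and 1008, 1417 and 1098 at 24 h (log2 change 1.70, SE 0.45, adjusted p = 0.0108, lost without LPS 24 h replicate 2 at an adjusted p of up to 0.0542), with a wide 4 h spread. Sesn1, a sestrin, was at 151, 143 and 130.1 normalised reads at 4 h and 221, 232 and 251 at 24 h under LPS (log2 change 0.73, adjusted p = 0.00111) and went the other way in the vehicles (-0.25 in DMSO, which missed the threshold, and a fall of 0.31 in ETOH), a difference of 1.02, SE 0.12, adjusted p = 4.27e-05. Rbl2, the pocket protein of resting cells, was at 511, 468 and 489 normalised reads at 4 h and 882, 819 and 781 at 24 h (log2 change 0.76, adjusted p = 0.000203, difference 0.60, adjusted p = 0.000955). On the joint scale Rbl2 was at 480.3 to 519 at 4 h and 807 to 906 at 24 h under LPS and 714 to 911 at 4 h and 839 to 1036 at 24 h in the vehicles, so LPS was lower than every vehicle library at 4 h and overlapped with the vehicles at 24 h.

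Sterol genes rose, 14 of 21 with 1 fall, and the median was 0.44 against 0.23 in each vehicle. In DMSO 10 of 21 rose and 2 fell, and in ETOH 9 of 21 rose and 2 fell. The difference was called positive for 3 of 21, against 9.32% of all genes, and negative for 0. Pmvk, an enzyme of the mevalonate route, was at 344, 593 and 398 normalised reads at 4 h and 998, 1133 and 907 at 24 h (log2 change 1.22, SE 0.18, adjusted p = 0.000546), and Lss, or lanosterol synthase, at 1675, 1885 and 1552 normalised reads at 4 h and 3119, 3305 and 3157 at 24 h (log2 change 0.91, SE 0.09, adjusted p = 9.42e-05). Dhcr7, which makes cholesterol from its last precursor, was at 978, 1057 and 889 normalised reads at 4 h and 1545, 1808 and 1827 at 24 h (log2 change 0.82, adjusted p = 0.00021, difference 0.67, adjusted p = 0.00576). Of 20 tested genes of cholesterol efflux and fatty acids, 7 rose and 3 fell (Nr1h3, Apoe, Fasn). Apoe, the lipoprotein that carries cholesterol out of microglia, fell, from 914, 1168 and 1162 to 655, 519 and 581 normalised reads (log2 change -0.88, SE 0.12, adjusted p = 0.000433, difference -0.62, adjusted p = 0.00455). Scd1, the stearoyl-CoA desaturase, was at 5373, 5146 and 4951 normalised reads at 4 h and 8651, 9976 and 9285 at 24 h (log2 change 0.85, SE 0.09, adjusted p = 0.000116) and rose in both vehicles (0.65 and 0.69). The lipid droplet gene Plin2 was at 2514, 2603 and 2515 normalised reads at 4 h and 2609, 2724 and 2567 at 24 h under LPS (log2 change 0.05, adjusted p = 0.597) and rose in DMSO by 1.09 and in ETOH by 0.71, a difference of -0.84, adjusted p = 1.34e-05. Fabp5, a fatty acid carrier, rose under LPS (log2 change 0.28, adjusted p = 0.0207, lost without LPS 24 h replicate 2 or 3 or LPS 4 h replicate 3 at an adjusted p of up to 0.0864) and fell in both vehicles (-0.29 and -0.32).
Glycolysis and hypoxia-response genes rose in 9 of 25 cases under LPS and fell in 0, while 19 of 25 rose in DMSO and 23 in ETOH. The LPS count was 15 without LPS 4 h replicate 2 and 5 without LPS 24 h replicate 2. Ero1a, an oxidase of protein folding induced by low oxygen, was at 4603, 10244 and 5845 normalised reads at 4 h and 19902, 26514 and 21301 at 24 h (log2 change 1.78, SE 0.24, adjusted p = 0.000403). Ndrg1 was at 4611, 13110.3 and 6014 normalised reads at 4 h and 14403, 19772 and 14771 at 24 h (log2 change 1.18, adjusted p = 0.011, lost without LPS 24 h replicate 2 at an adjusted p of up to 0.0566), and replicate 2 of 4 h was the nearest to the 24 h values for both. Bnip3, a mitophagy receptor, rose less under LPS (log2 change 0.84, adjusted p = 0.0193, lost without LPS 24 h replicate 2 or 3 or LPS 4 h replicate 3 at an adjusted p of up to 0.0742) than in the vehicles (1.44 and 2.22, difference -0.98, adjusted p = 0.0346).
Of 21 tested ATF4 stress genes, 10 rose and 2 fell (Shmt2, Slc7a1), with 0 falls without LPS 4 h replicate 1 or 3. Pycr1, a proline enzyme, was at 138, 115 and 119 normalised reads at 4 h and 329, 345 and 360.5 at 24 h (log2 change 1.47, SE 0.12, adjusted p = 5.35e-05). Ddit3, the stress factor CHOP, was at 232, 232 and 194 normalised reads at 4 h and 327, 339.7 and 388 at 24 h (log2 change 0.68, adjusted p = 0.00158) and rose by 2.26 in DMSO and 2.22 in ETOH, a difference of -1.55, SE 0.18, adjusted p = 3.25e-05. Of 22 Nrf2 targets 5 rose and 5 fell, neither share above that of all genes (24.7% up and 24.3% down). Falls numbered 2 without LPS 24 h replicate 1 or 3 or LPS 4 h replicate 1 or 3 and 3 without LPS 24 h replicate 2. Hmox1, or haem oxygenase 1, was at 3539, 4681 and 3598 normalised reads at 4 h and 5012, 7159 and 6297 at 24 h (log2 change 0.64, adjusted p = 0.00511) and rose more in the vehicles (1.42 and 1.80, difference -0.97, adjusted p = 0.000672). Of 14 D-type cyclin and growth genes 2 rose (Ccnd3, Bcl2l1) and 4 fell (Cdk4, Odc1, Bcl2a1b, Id3), with 5 rises under the replicate block, 4 without LPS 4 h replicate 2, and 2 falls without LPS 24 h replicate 3.

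Receptors and lysosomal genes of phagocytosis changed in 15 of 30 cases, a share near the 48.9% over all genes, with 11 up and 4 down (7 down without LPS 4 h replicate 2). The difference was called positive for 6 and negative for 6. The 4 Fc gamma receptor genes on the list rose. Fcgr2b, the inhibitory one, was at 758, 874 and 820.3 normalised reads at 4 h and 1689, 2592 and 2132 at 24 h (log2 change 1.37, SE 0.14, adjusted p = 0.000122), and Fcgr1, the high-affinity receptor, at 518, 617 and 564 normalised reads at 4 h and 672, 873 and 767 at 24 h (log2 change 0.44, adjusted p = 0.0105). Fcgr1 fell in DMSO (-0.64) and ETOH (-0.74), and its difference was 1.14, adjusted p = 0.00018. The scavenger receptor Msr1 was at 1430.3, 1923 and 1518 normalised reads at 4 h and 1628, 2873 and 2299 at 24 h under LPS (log2 change 0.45, adjusted p = 0.0666, and 0.00344 with the block), fell in the vehicles (-1.36 and -1.33), and differed by 1.80, SE 0.26, adjusted p = 0.000148. Tfeb, the master factor of lysosome genes, was at 106, 139.9 and 96.8 normalised reads at 4 h and 289, 375 and 291 at 24 h (log2 change 1.48, SE 0.17, adjusted p = 0.00017). Ctsk, the collagen-cutting cathepsin K, was at 589.8, 728 and 813 normalised reads at 4 h and 243, 205 and 325 at 24 h (log2 change -1.47, SE 0.17, adjusted p = 0.000199), and Gpnmb, a glycoprotein of lipid-laden macrophages, at 2052, 1491 and 2086 normalised reads at 4 h and 1134, 1073 and 1146 at 24 h (log2 change -0.73, adjusted p = 0.00116). Neither was called in DMSO or ETOH, and the differences were -1.33, adjusted p = 0.00235 and -0.84, adjusted p = 0.00316.
Of 11 complement genes 5 rose (C1s1, C5ar1, C5ar2, C3ar1, Itgb2) and 1 fell (Cr1l), or 2 fell without LPS 4 h replicate 2. Itgb2, the beta chain of complement receptor 3, was at 3444, 3556 and 3463 normalised reads at 4 h and 4964, 6338 and 5696 at 24 h (log2 change 0.69, SE 0.10, adjusted p = 0.000432). Of 18 adhesion and matrix genes 6 rose and 2 fell. For this list and for complement, the shares of all genes were 24.7% up and 24.3% down. Itgal, the partner chain of Itgb2 in LFA-1, was at 1203, 1911 and 1220.1 normalised reads at 4 h and 2127, 2824 and 2596 at 24 h (log2 change 0.82, adjusted p = 0.00348, difference 0.93, adjusted p = 0.02).
Of the 15 tested microglial and macrophage markers, 5 rose (Aif1, Itgam, P2ry12, Tmem119, Adgre1) and 1 fell (Spi1), against 24.7% and 24.3% of all genes. Without LPS 4 h replicate 2, 2 fell. Itgam, the alpha chain of complement receptor 3, was at 1498, 1764 and 1406 normalised reads at 4 h and 2398, 3533 and 2814 at 24 h (log2 change 0.89, SE 0.14, adjusted p = 0.000729, difference 0.72, adjusted p = 0.0104). Adgre1, or F4/80, was at 1948, 2836 and 2278 normalised reads at 4 h and 2627, 4693 and 3539 at 24 h (log2 change 0.60, adjusted p = 0.0285, lost without LPS 24 h replicate 2 or 3 or LPS 4 h replicate 1 or 3 at an adjusted p of up to 0.109) and fell in DMSO (-0.60) and ETOH (-0.80), a difference of 1.31, adjusted p = 0.00389. Tmem119, a marker of resident microglia, was low, at 44.7, 39.4 and 18.7 normalised reads at 4 h and 125, 114 and 119.9 at 24 h (log2 change 1.86, adjusted p = 0.000744, difference 1.70, adjusted p = 0.000656). Csf1r was at 10414, 12525 and 9837 normalised reads at 4 h and 9432, 13346 and 10935 at 24 h (log2 change 0.03, adjusted p = 0.857), and Cx3cr1, the fractalkine receptor, at 301, 215 and 318 normalised reads at 4 h and 183, 361 and 303 at 24 h (log2 change -0.01, adjusted p = 0.9753). For these last 2 the groups overlapped.

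Among called genes with a mean of at least 50 normalised reads in the higher group and no overlap between the times, the 10 largest rises were those of Urah, Lcn2, S100a7a, Pou6f1, Crtac1, Ccdc136, Nfe2, Crybg2, Map1a and Tox2. Urah, an enzyme of urate breakdown (GRCm39 chromosome 7, 140414931 to 140417879), was at 3.12, 4.15 and 2.08 normalised reads at 4 h and 47.7, 84.4 and 78.7 at 24 h (log2 change 4.10, SE 0.35, adjusted p = 5.49e-05). The vehicles held 1, 1, 1 and 10 reads of Urah over the 3 libraries of DMSO 4 h, DMSO 24 h, ETOH 4 h and ETOH 24 h, so its difference of 3.66 depends on the added 1. Crybg2 was at 22.9, 29 and 37.5 normalised reads at 4 h and 151, 255 and 194 at 24 h (log2 change 2.70, SE 0.24, adjusted p = 6.68e-05, difference 1.94, SE 0.31, adjusted p = 0.000448). The next 5 genes rose without LPS too.
Map1a, a microtubule-associated protein, was at 79.1, 58.1 and 59.3 normalised reads at 4 h and 269, 620.03 and 391.8 at 24 h (log2 change 2.62, SE 0.26, adjusted p = 0.000116), and rose by 2.58 in DMSO and 2.68 in ETOH. Crtac1 rose by 3.22, 2.33 and 2.60, Pou6f1 by 3.47, 2.15 and 2.58, Ccdc136 by 2.86, 2.18 and 2.37, and Tox2 by 2.59, 2.96 and 2.96 under LPS, in DMSO and in ETOH. The difference passed the test for none of these 5 (adjusted p = 0.988, 0.0554, 0.11, 0.151 and 0.571 for Map1a, Crtac1, Pou6f1, Ccdc136 and Tox2), which does not show that they changed alike.
Nfe2, a haematopoietic factor, was at 11.4, 13.5 and 8.33 normalised reads at 4 h and 85.7, 104 and 55.8 at 24 h (log2 change 2.76, adjusted p = 0.00014), and rose in ETOH by 1.73. S100a7a, an S100 protein whose relatives lie beside it and can share reads, was at 7.28, 9.33 and 1.04 normalised reads at 4 h and 61.9, 104 and 81 at 24 h (log2 change 3.87, SE 0.54, adjusted p = 0.000456), rose in both vehicles (2.202 and 1.66), and differed by 1.94, adjusted p = 0.0368, a call that was lost in 13 alternative settings, with a value of 1.21 without LPS 4 h replicate 3.
Besides the genes above, the 10 largest falls under the same limits included Pgm5, at 71.8, 40.4 and 73.9 normalised reads at 4 h and 9.77, 8.34 and 13 at 24 h (log2 change -2.44, SE 0.31, adjusted p = 0.000267, difference -2.44, adjusted p = 0.00251), Olfm4, a secreted granule protein, at 81.1, 64.3 and 91.6 normalised reads at 4 h and 17.4, 9.38 and 15.3 at 24 h (log2 change -2.44, SE 0.28, adjusted p = 0.000166, difference -2.15, adjusted p = 0.00155), and Mrc1, the mannose receptor of tissue macrophages, at 56.2, 66.3 and 80.2 normalised reads at 4 h and 11.9, 21.9 and 14.5 at 24 h (log2 change -2.03, SE 0.27, adjusted p = 0.000366, difference -1.66, adjusted p = 0.00298). For all 3 the lack of overlap between the times was a condition of being named and is no result.

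Among called genes with a mean of at least 50 reads on the joint scale in an LPS group and the same sign against each vehicle, the 8 most positive differences from the vehicles included, beside Lcn2, Urah and S100a8, those of Wfdc17, Dennd2b, Wnt6 and Csf3r. Wfdc17, a small secreted protein of activated macrophages, was at 99.9, 69.5 and 81.2 normalised reads at 4 h and 367, 369 and 351 at 24 h under LPS (log2 change 2.12, SE 0.15, adjusted p = 3.02e-05) and at 18.4 to 26.4 at 4 h and 18 to 33.6 at 24 h on the joint scale in the vehicles, a difference of 2.05, SE 0.23, adjusted p = 1.69e-05. Csf3r, the receptor of the rising Csf3, was at 119.6, 128 and 108 normalised reads at 4 h and 328, 589 and 456 at 24 h (log2 change 1.90, SE 0.19, adjusted p = 0.000115) and at 71 to 110.3 at 4 h and 75.2 to 110.5 at 24 h in the vehicles, a difference of 1.96, SE 0.25, adjusted p = 5.19e-05. Wnt6, a secreted Wnt ligand, was at 58.3, 76.7 and 54.1 normalised reads at 4 h and 245, 389.7 and 351 at 24 h (log2 change 2.35, SE 0.20, adjusted p = 5.64e-05, difference 2.02, SE 0.33, adjusted p = 0.000542). For all of them the LPS 24 h libraries stood above the other groups. Dennd2b was at 23.9, 18.7 and 27.1 normalised reads at 4 h and 67.3, 67.7 and 62.6 at 24 h (log2 change 1.48, adjusted p = 0.00054, difference 2.05, SE 0.31, adjusted p = 0.00023).
Among the 8 most negative under the same limits, Pgf and Lrrc32 rose under LPS but rose more in the vehicles. Pgf, the placental growth factor, was at 18.7, 50.8 and 28.1 normalised reads at 4 h and 62.9, 96.9 and 60.3 at 24 h (log2 change 1.23, adjusted p = 0.0139), against 7.13 to 39 at 4 h and 173 to 345 at 24 h in the vehicles on the joint scale (log2 changes 3.55 and 4.35, difference -2.71, SE 0.54, adjusted p = 0.00235). Lrrc32, a docking protein of latent TGF-beta, was at 53.1, 117.1 and 49.97 normalised reads at 4 h and 198, 266 and 195 at 24 h (log2 change 1.66, adjusted p = 0.00142), against 8.71 to 113 at 4 h and 443 to 629.6 at 24 h (log2 changes 3.02 and 5.03, difference -2.35, SE 0.58, adjusted p = 0.00984). Their vehicle values at 24 h lay above all 6 LPS libraries on the joint scale.
Of the 500 list members, 9 were called in opposite directions under LPS and in both vehicles. Adgre1, Fabp5 and Fcgr1 rose under LPS and fell in the vehicles, and Csf1, Ccl3, Ccl4, Cxcl2, Cxcl3 and Peli1 fell under LPS and rose in the vehicles. The LPS call held in all 6 fits without 1 library for Csf1, Ccl3, Ccl4 and Fcgr1, and was lost in 3 for Cxcl3 and Fabp5 and in 4 for Adgre1, Cxcl2 and Peli1. Over all genes in the 3 tables this held for 24 of 2796 rises and 39 of 2760 falls.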

How the data were processed

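RNA of 36 BV-2 libraries was sequenced, and 18 libraries (LPS, DMSO and ETOH at 4 h and 24 h, 3 each) in 3 of the 30 deposited tables were used. Reads were aligned with HISAT2 2.2.1 to GRCm39, counted per gene with HTSeq 2.0.3 and analysed with DESeq2 1.40.2 per the submitters' processing notes, which do not give the strand setting. Each table holds a signal value per gene and library, which the authors made by dividing read counts by the DESeq2 size factor of that table. Whole reads were recovered from 312132 of 312132 values (100%, within 0.01). The tables also hold the authors' fold changes and p-values, which were not used.

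From these values log2(normalised reads + 1) was tested with limma 3.58.1 (R 4.3.3, moderated linear models with an expression trend) on genes with at least 10 normalised reads in at least 3 libraries, with Benjamini-Hochberg adjustment over all genes tested and a threshold of 0.05. The counts of DMSO, ETOH and LPS time changes came from 6 libraries each. For the difference of time changes the recovered reads of 18 libraries were rescaled jointly by the median of ratios, a gene absent from a table counting as 0 reads, and levels beside vehicles are on this joint scale. Values of LPS libraries alone are on the scale of their own table. Fold changes are on the log2(value + 1) scale, which understates changes of low genes.

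Same-numbered LPS libraries deviated together, with correlations of 0.155, 0.288 and 0.152 over 10047 genes. Differently numbered pairs of replicates 1 and 3 gave 0.125 and 0.113, nearly as much. Those with replicate 2 gave -0.225 to -0.181, so only replicate 2 stood apart. The replicate number was treated as pairing the libraries in an alternative fit only. Same-numbered DMSO libraries gave 0.359, 0.376 and 0.00884, and differently numbered ones -0.373 to 0.0465. In ETOH the same-numbered pairs gave 0.320, 0.222 and 0.0419 and the others -0.310 to 0.144. In both vehicles only the third pair was near 0. The scripts were tested on simulated data. No pair of replicates was a copy. Alternatives were edgeR 4.0.16, DESeq2 1.42.0, other normalisations, filters and pseudocounts, a log2 limit, leaving out each library and the replicate block.

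Genes named were the 10 largest rises and falls called under LPS, with a mean of at least 50 normalised reads in the higher group and no overlap, the 8 largest called differences each way with a mean of at least 50 joint reads in an LPS group and the same sign against each vehicle, and members of 25 lists (566 genes, of which 500 were tested, 49 were below the minimum and 17 were not listed). The comparison, its members and the lists were chosen with earlier results of these data known. Gene coordinates are from the deposited tables on GRCm39, and promoters are from RefSeq on GRCm38.p6. A few members of the lists are counted but not reported here by name.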

Additional observations from a re-analysis of the deposited data

Results flagged for a closer look

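The difference is the log2 time change under LPS minus the mean of the vehicles. It passed an adjusted p of 0.05 by limma for 22 of the 30 genes named by size. Of these, the 8 most positive and 8 most negative were named because this test called them. Their passing was fixed by that rule, so the count is no result and the values are only listed. The difference was positive for Lcn2 (3.87), Urah (3.66), S100a8 (2.09), Dennd2b (2.05), Wfdc17 (2.05), Wnt6 (2.02), Csf3r (1.96), S100a7a (1.94) and Crybg2 (1.94). It was negative for Mmp10 (-4.29), Ccl20 (-3.85), Cxcl2 (-2.93), Pgf (-2.71), Il1r2 (-2.56), Pgm5 (-2.44), Ccl4 (-2.36), Lrrc32 (-2.35), Olfm4 (-2.15), Cmpk2 (-1.88), Ifit1 (-1.78), Mrc1 (-1.66) and Irgm2 (-1.30). Pgf and Lrrc32 are in the second group although they rose under LPS. Urah, Mmp10 and Ccl20 had almost no reads in the vehicles.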

How the results depend on the processing

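For the genes named by the size of their change or difference, 713 recomputed values kept their direction and call, 18 lost their call and 0 reversed. Among the 280 list members called under LPS, 75 lost the call in at least 1 fit without 1 library. S100a7a lost the call of its difference in 13 settings (adjusted p = 0.0518 to 0.201 by limma), Urah with edgeR (0.272) and DESeq2 (0.0740), Ccl20 with edgeR (0.948) and DESeq2 (0.0741), and Lrrc32 against DMSO alone (0.0934). Of the counts of calls, 68 stayed within 1.5 times and 8 did not. These were the counts beyond 1 on the log2 scale, 922 for LPS, 710 for DMSO, 1136 for ETOH, 336 for the difference, 319 shared between LPS and DMSO (3712 without the limit) and 454 shared between LPS and ETOH (4220 without it), each smaller by construction, and the difference against DMSO alone (1126) or ETOH alone (1115), against 2039 with both. The cause of the last 2 was not tested.

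Leaving out 1 library gave 4230 to 5920 LPS calls, the fewest without LPS 4 h replicate 3, 4703 to 6077 in DMSO, 5857 to 6841 in ETOH, and 1492 to 2017 for the difference. Without the second-numbered 4 h library of each treatment, chosen after seeing the data, the difference had 1934 calls (1058 positive and 876 negative). With the replicate block LPS had 6010 calls, against 5633, DMSO 6483, ETOH 7173 and the difference 2517. Of the list members, 323 were called under the block, with 43 gained and 0 lost, and beyond the lists named beside their counts it moved no list count by more than 1.5 times. The median difference of all genes was 0.01 and, with libraries scaled to their totals, 0.06. Depth, 14110424 reads or more per library, limits genes under the minimum and also tested genes with few reads. With 3 libraries per group small changes can be missed.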
